A study of Homo sapiens with 4 samples.

Results

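The BCL2 family was examined in MCF10A cells through 10 genes chosen by symbol: the survival genes *BCL2*, *BCL2L1* and *MCL1*, the effector genes *BAX* and *BAK1*, and the BH3-only genes *BCL2L11*, *BID*, *BBC3*, *PMAIP1* and *BMF*. All 10 were found among the 63856 genes of the deposited count table and among the rows of the deposited normalized table. All 10 also passed the filter on low counts, which 15830 genes passed. The filter asks for about 10 counts in at least 2 libraries, and *BCL2* met it only in the HSF1-pLVX libraries. The upward direction of *BCL2* is therefore tied to the filter. MCF10A is a non-tumorigenic human breast epithelial cell line, and RNA-seq was performed on 2 libraries of wild type (WT) cells and 2 libraries of HSF1-pLVX cells, which had been transduced with a lentivirus carrying the human HSF1 coding sequence in the pLVX-Puro vector and selected with puromycin. By the sample labels, all cells grew in a medium with horse serum, insulin, hydrocortisone, EGF and cholera toxin. No library of empty-vector cells was analysed here, so HSF1 and the viral vector, puromycin selection or separate passage cannot be told apart as sources of a difference.

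Proteins of the BCL2 family decide at the mitochondrial outer membrane whether a stressed cell survives. Survival proteins hold the effectors BAX and BAK1 in check, free effectors form pores through which cytochrome c leaves the mitochondria, and BH3-only proteins carry the stress signal by binding survival proteins or, for some of them, the effectors themselves. In mammary epithelial cells the BH3-only proteins BIM (encoded by *BCL2L11*) and BMF are known for their part in anoikis, the death of cells that lose contact with the matrix, and in the clearing of the lumen of acini. Protein levels, splice forms and phosphorylation, which also set the activity of this family, were not measured.

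The libraries held between 18688109 and 24184285 counts. The level of *HSF1*, the introduced gene, in counts scaled to a common library size with TMM factors (CPM) was 200.4 and 189 in the WT libraries and 982 and 999 in the HSF1-pLVX libraries. The introduced and the endogenous transcript are counted together. The summed level of 8 mammary epithelial markers lay between 21190 and 22130 CPM in WT and between 11400 and 11770 CPM in HSF1-pLVX libraries. The 8 include *EPCAM*, whose protein the paper describes as low in cells of basal phenotype. This sum is therefore not a measure of basal identity. The summed levels of 6 fibroblast, 4 leukocyte and 4 endothelial markers lay between 7.72 and 10.8, 0.213 and 0.592, and 1.94 and 3.04 CPM in WT libraries. In HSF1-pLVX libraries these sums lay between 13.9 and 14.9, 0.239 and 0.453, and 13.1 and 14.3 CPM. The leukocyte marker *PTPRC* had 0 counts in all 4 libraries. Most of the endothelial sum in HSF1-pLVX cells came from *KDR*, whose counts were 35 and 27 in WT and 309 and 256 in HSF1-pLVX libraries. The part of such differences in cell state in the results on the BCL2 family was not tested. In these bulk libraries, fewer cells that express a gene and less RNA of it per cell cannot be told apart.

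The comparison asked how the BCL2 family stands in MCF10A cells that overexpress HSF1. The largest difference was in *BCL2L1*, which encodes BCL-XL and was 3.86-fold lower in HSF1-pLVX cells. The other survival gene of similar abundance, *MCL1*, was 1.36-fold higher. *BAX* and 4 of the 5 BH3-only genes (*BCL2L11*, *BBC3*, *PMAIP1* and *BMF*) rose by 1.23-fold to 1.58-fold, while *BAK1* was 1.22-fold and *BID* 1.21-fold lower, and *BCL2* was close to the limit of detection. With edgeR (quasi-likelihood F test, Benjamini-Hochberg adjusted p of 0.05 over all 15830 genes), 6 of the 10 genes were called higher and 3 called lower. Of all tested genes, 32.7% were higher and 33.2% were lower by the same test. The total of 9 of 10 genes called stands against 65.9% of all genes. A 2-fold change was reached by 1 of the 10 genes, *BCL2L1*, downwards. Of all tested genes, 14.0% fell and 14.9% rose by 2-fold or more. The median log2 fold change was 0.42 over the 10 genes and 0.02 over all tested genes. The 2 WT and the 2 HSF1-pLVX values did not overlap for any of the 10 genes, with 7 genes above and 3 below WT. Of all tested genes, 42.1% lay above and 41.0% below in this way. *BCL2*, 1 of the 7, entered this count and the median although it passed the filter only through the HSF1-pLVX libraries. A permutation of 2 libraries against 2 cannot give an exact p below 0.33, so the test of each gene rests on the spread shared with other genes.

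**Figure D1:**
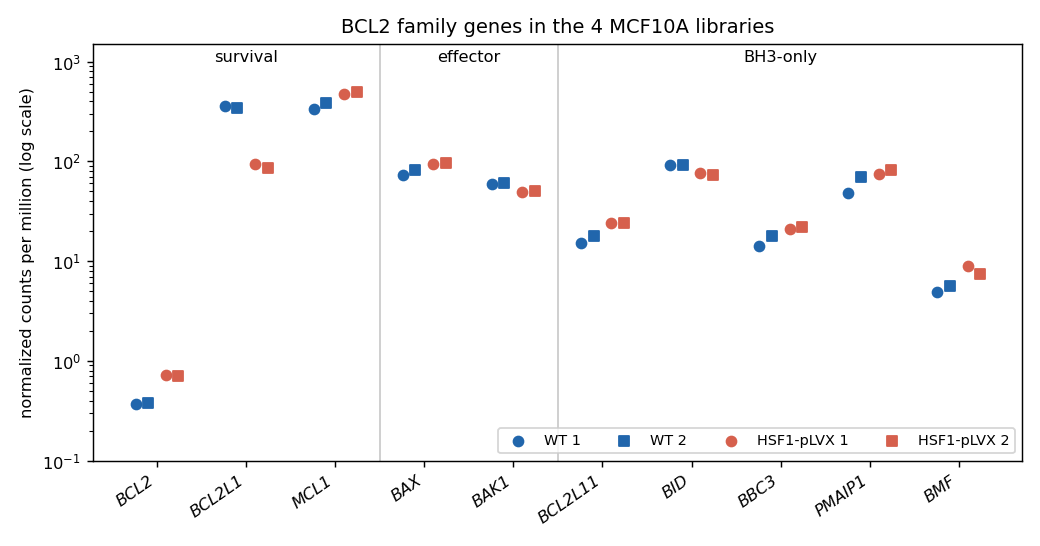
Level of each BCL2 family gene in each library, in CPM on a log axis, with WT libraries in blue and HSF1-pLVX libraries in red, replicate 1 as circles and replicate 2 as squares. *BCL2L1* drops from 359 and 343 CPM in WT to 94.8 and 86.6 CPM in HSF1-pLVX libraries, the other genes shift by less, and *BCL2* lies below 1 CPM in every library.

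*BCL2L1* (ENSG00000171552.12, chromosome 20 of hg38, 31664452 to 31723989, minus strand) encodes BCL-XL, a survival protein of epithelial cells. Its counts were 6731 and 6368 in the WT libraries and 2381 and 1721 in the HSF1-pLVX libraries, equal to 359 and 343 CPM in WT and 94.8 and 86.6 CPM in HSF1-pLVX cells. Both HSF1-pLVX libraries were thus far below both WT libraries, whose values differed little from each other. This is a log2 fold change of -1.95 (standard error, SE, 0.0942, 95% interval from -2.15 to -1.75, edgeR adjusted p = 3.92e-10). The log2 ratio within replicate 1 was -1.92 and within replicate 2 -1.98, and the log2 fold change lay between -2.01 and -1.88 with each library left out in turn. Of all tested genes, 5.6% had a lower log2 fold change. The exons of *ABALON*, a noncoding gene on the opposite strand, cover 1424 of the 3314 exonic bases (43%) of *BCL2L1*, and the strand setting of the counting is not given in the sources used here. *ABALON* itself was assigned between 18 and 26 counts in each library, so few reads went to it, while reads that could not be assigned to either gene would be missing from *BCL2L1* in all 4 libraries. The deposited counts cannot separate the long splice form of *BCL2L1*, which protects cells, from the short form, which promotes death.

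The 250 bases before the most upstream RefSeq start of *BCL2L1* are shown because this gene changed most, beside the same windows of *BAX*, *BAK1* and *BMF*, which hold the matches described with those genes. The sequences are from RefSeq on GRCh38.p14, written 5′ to 3′ on the strand of the gene, and capitals mark every match to a heat shock element, an E-box or an E2F site. They lie at chr20:31723964-31724213 on the minus strand for *BCL2L1*, chr19:48954625-48954874 on the plus strand for *BAX*, chr6:33580277-33580526 on the minus strand for *BAK1* and chr15:40108880-40109129 on the minus strand for *BMF*.
BCL2L1: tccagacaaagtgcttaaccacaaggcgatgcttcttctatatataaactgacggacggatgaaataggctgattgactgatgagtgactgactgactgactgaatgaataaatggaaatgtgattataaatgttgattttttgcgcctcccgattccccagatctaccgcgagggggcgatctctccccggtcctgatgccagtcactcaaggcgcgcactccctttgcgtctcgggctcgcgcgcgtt
BAX: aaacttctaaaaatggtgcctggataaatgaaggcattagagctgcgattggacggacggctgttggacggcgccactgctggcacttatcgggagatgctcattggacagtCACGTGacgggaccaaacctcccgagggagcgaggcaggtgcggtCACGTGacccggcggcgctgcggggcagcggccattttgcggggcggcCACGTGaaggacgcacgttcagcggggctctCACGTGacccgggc
BAK1: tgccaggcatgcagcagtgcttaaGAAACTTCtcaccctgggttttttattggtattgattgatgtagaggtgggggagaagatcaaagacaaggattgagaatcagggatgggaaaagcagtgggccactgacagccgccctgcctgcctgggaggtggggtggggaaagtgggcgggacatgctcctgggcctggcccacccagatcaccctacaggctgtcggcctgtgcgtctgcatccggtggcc
BMF: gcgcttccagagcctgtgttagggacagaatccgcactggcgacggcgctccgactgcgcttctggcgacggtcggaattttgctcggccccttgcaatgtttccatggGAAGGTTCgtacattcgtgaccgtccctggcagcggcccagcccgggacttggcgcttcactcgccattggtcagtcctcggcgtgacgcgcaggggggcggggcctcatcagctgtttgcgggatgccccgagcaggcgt

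RefSeq windows from 250 bases before to 50 after a start were found for 9 of the 10 genes, all but *MCL1*, with 5 windows for *BID*, 2 each for *BCL2L1* and *BMF* and 1 for each of the others. A gene was counted if any of its windows held the motif, and the share of the 27305 genes with a window that did so is given beside each count. The element that HSF1 trimers bind was searched on both strands as 3 units, TTC, GAA and TTC, with any 2 bases between neighbouring units, and it was in none of the windows of the 9 genes and in those of 0.608% of all genes. A pair of its units, written GAANNTTC and equal to its reverse complement, was in *BAK1* and *BMF* and in 8.21% of all genes. The other pair, TTCNNGAA, also equal to its reverse complement and overlapping the longer element, was in a window of *BID* and in 9.46% of all genes. The E-box CACGTG, the site of MYC and related factors, was in windows of *BAX*, *BID* and *BBC3* and in 8.77% of all genes. The E2F site, in 2 common forms and on both strands, was in no window of the 9 genes and in those of 2.75% of all genes. A match describes the letters of the window, not binding, and sites farther from the start were not searched.

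*MCL1* (ENSG00000143384.12, chromosome 1, 150574551 to 150579738, minus strand) encodes a short-lived survival protein. Its level was 331 and 383 CPM in WT and 478 and 494 CPM in HSF1-pLVX libraries. Both HSF1-pLVX values were above both WT values, of which replicate 2 was the nearer. *MCL1* had a log2 fold change of 0.44 (SE 0.0996, 95% interval from 0.23 to 0.66, edgeR adjusted p = 0.00125). Without HSF1-pLVX replicate 2 the log2 fold change was 0.43 and no longer passed the threshold (edgeR adjusted p = 0.0585). *BCL2* (ENSG00000171791.12, chromosome 18, 63123346 to 63320128, minus strand), the founding member of the family, had 7 counts in each WT library and 18 and 14 counts in the HSF1-pLVX libraries. These equal 0.373 and 0.377 CPM in WT and 0.717 and 0.705 CPM in HSF1-pLVX cells, so the values of a group were almost alike and the groups did not overlap. *BCL2* had a log2 fold change of 0.91 (SE 0.422, 95% interval from 0.01 to 1.82), which did not pass the threshold (edgeR adjusted p = 0.0702). The test does not rest on the closeness of these values alone, since it uses a spread shared with other genes. At 7 to 18 counts a library the standard error was wide, and a change of this size was not called after adjustment.

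**Figure D2:**
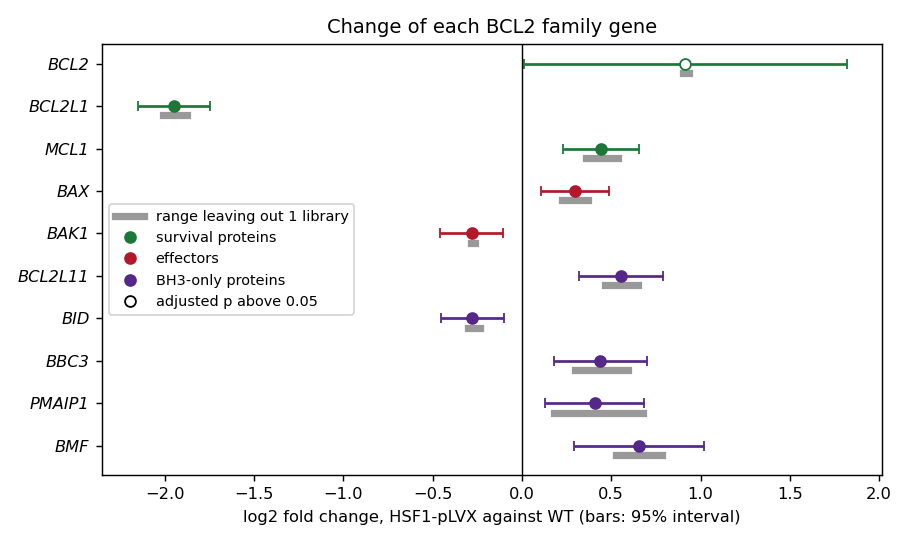
Log2 fold change of each BCL2 family gene in HSF1-pLVX against WT cells, with its 95% interval from edgeR (coloured by role, open where the adjusted p is above 0.05) and, in grey, its range with each library left out in turn. *BCL2L1* stands at -1.95, 8 genes lie between -0.28 and 0.66, and the interval of *BCL2* runs from 0.01 to 1.82.

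Of the effectors, *BAX* (ENSG00000087088.19, chromosome 19, 48954815 to 48961798, plus strand) encodes the pore-forming protein that moves from the cytosol to mitochondria. Its level was 72.5 and 82 CPM in WT and 93.3 and 96.8 CPM in HSF1-pLVX libraries. The gap between the WT libraries was close in size to the gap between the higher WT library and the lower HSF1-pLVX library. *BAX* had a log2 fold change of 0.30 (SE 0.0885, edgeR adjusted p = 0.00846). It was 0.23 without WT replicate 1 (edgeR adjusted p = 0.0766) and 0.28 without HSF1-pLVX replicate 2 (edgeR adjusted p = 0.108), so the call rests on each of these libraries. The window of *BAX* shown with the other sequences holds 4 E-boxes, which begin at positions -138, -93, -45 and -14 from the RefSeq start, and 4 or more E-boxes were found in 0.0183% of all genes, a number computed after the matches were seen. In the same cells *MYC* was 6.22-fold higher (its values are given with the other pathway genes), and whether the E-boxes had a part in the level of *BAX* was not tested.

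*BAK1* (ENSG00000030110.12, chromosome 6, 33572547 to 33580293, minus strand) encodes BAK, the effector that resides on mitochondria. Its level was 59.3 and 60.8 CPM in WT and 48.9 and 49.9 CPM in HSF1-pLVX libraries. Replicates of a variant were close to each other, and both HSF1-pLVX libraries were below both WT libraries. The difference was a log2 fold change of -0.28 (SE 0.0824, edgeR adjusted p = 0.00767). Without either HSF1-pLVX library the direction was the same and the edgeR adjusted p was 0.0574 (without replicate 1) and 0.0651 (without replicate 2). Its window holds the pair of heat shock units gaaacttc, starting at position -226 from the RefSeq start. *BAX* and *BAK1* thus moved in opposite directions, and the summed level per length of these 2 genes, without the effector gene *BOK*, overlapped between the variants.

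Of the BH3-only genes, *BCL2L11* (ENSG00000153094.22, chromosome 2, 111119378 to 111168447, plus strand), which encodes BIM, a binder of all survival proteins, was at 15.2 and 17.7 CPM in WT and 24 and 24.4 CPM in HSF1-pLVX libraries. The HSF1-pLVX libraries were almost alike and both above WT. Its log2 fold change was 0.55 (SE 0.11, edgeR adjusted p = 0.00047), and the gene kept its call with each library left out, the largest edgeR adjusted p being 0.0345. *BMF* (ENSG00000104081.13, chromosome 15, 40087890 to 40108892, minus strand), whose protein is held at the actin cytoskeleton in attached cells, was at 4.85 and 5.6 CPM in WT and 8.92 and 7.5 CPM in HSF1-pLVX libraries. Its counts, between 91 and 224 in each library, were the lowest of the called genes. For *BMF* the log2 fold change was 0.66 (SE 0.17, edgeR adjusted p = 0.00349), and in DESeq2's Wald test the gene was just outside the threshold (adjusted p = 0.0556). The window of *BMF* shown with the other sequences holds the heat shock pair gaaggttc, starting at position -141.

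*BBC3* (ENSG00000105327.17, chromosome 19, 47220822 to 47232766, minus strand) and *PMAIP1* (ENSG00000141682.11, chromosome 18, 59899948 to 59904306, plus strand) encode PUMA and NOXA, BH3-only proteins known to be induced by cell stress. *BBC3* was at 14.1 and 17.7 CPM in WT and 21 and 22.2 CPM in HSF1-pLVX libraries. The WT libraries differed more from each other than the HSF1-pLVX libraries did, and the groups did not overlap. Between the variants *BBC3* had a log2 fold change of 0.44 (SE 0.121, edgeR adjusted p = 0.00557). The call was lost without WT replicate 1 (log2 fold change 0.30, edgeR adjusted p = 0.0512), without HSF1-pLVX replicate 2 (0.41, edgeR adjusted p = 0.113) and in DESeq2's Wald test (0.41, adjusted p = 0.059). *PMAIP1* was at 48.6 and 70.1 CPM in WT and 75.4 and 82 CPM in HSF1-pLVX libraries. Its WT libraries lay farther from each other than WT replicate 2 lay from either HSF1-pLVX library. Over all 4 libraries *PMAIP1* had a log2 fold change of 0.41 (SE 0.129, edgeR adjusted p = 0.0125). It was 0.18 without WT replicate 1 (edgeR adjusted p = 0.157), 0.68 without WT replicate 2, and 0.36 without HSF1-pLVX replicate 2 (edgeR adjusted p = 0.269), so the call of *PMAIP1* rests on single libraries.

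*BID* (ENSG00000015475.18, chromosome 22, 17734138 to 17774770, minus strand) encodes a protein that is cut by caspase-8 and so links death receptors to mitochondria. Of the 5 BH3-only genes chosen here, it was the 1 that fell. Its level was 90.9 and 91.4 CPM in WT and 76.8 and 73.6 CPM in HSF1-pLVX libraries. The WT libraries were nearly identical and both HSF1-pLVX libraries lay below them. *BID* had a log2 fold change of -0.28 (SE 0.0819, edgeR adjusted p = 0.0082), and without HSF1-pLVX replicate 2 it was -0.24 (edgeR adjusted p = 0.0999).

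The 6 genes called higher shared a difference between the WT libraries. In all 6 the level in WT replicate 2 was above that in WT replicate 1, nearer to the HSF1-pLVX libraries, by 0.18 (*BAX*), 0.21 (*MCL1* and *BMF*), 0.22 (*BCL2L11*), 0.33 (*BBC3*) and 0.53 (*PMAIP1*) on the log2 scale. WT replicate 2 was the higher of the WT libraries in 51.1% of all tested genes and in 49.1% of the genes called higher. Of all tested genes, 7.15% had a larger such difference than *PMAIP1* and 13.7% a larger one than *BBC3*. The differences of *BCL2L11*, *MCL1* and *BMF* were exceeded by 20.8%, 21.2% and 21.4% of genes, and that of *BAX* by more. For the 3 genes called lower, the difference was between -0.07 and 0.04. Without WT replicate 1, the log2 fold changes of the 6 genes called higher lay between 0.18 (*PMAIP1*) and 0.57 (*BMF*). They lay between 0.28 (*BAX*) and 0.78 (*BMF*) without HSF1-pLVX replicate 2. With 1 library left in a group, the fit takes its spread from the other group.

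**Figure D3:**
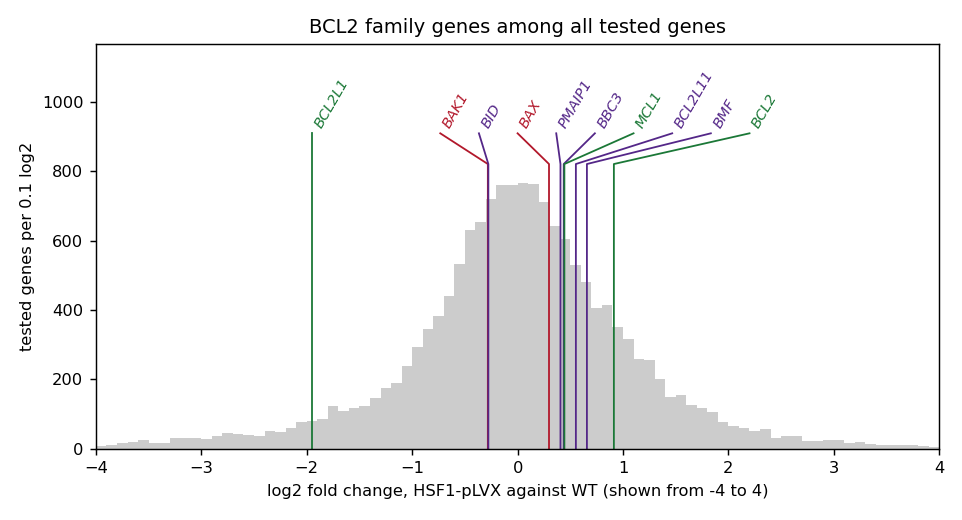
Histogram of the log2 fold changes of all tested genes (grey, number of genes in bins of 0.1), with a line at the value of each BCL2 family gene, coloured by role. The axis runs from -4 to 4 and leaves out 261 genes beyond it. *BCL2L1* lies in the lower tail and the other 9 genes lie in the body of the distribution.

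To compare levels between genes, CPM was divided by the exonic length in kilobases (RPKM). In WT cells *BCL2L1* was the most abundant of the 10 genes with a mean of 106 ± 3.38 RPKM (SD, n = 2), followed by *MCL1* with 81.7 ± 8.4. *BAX* (29.9 ± 2.6), *BAK1* (27.2 ± 0.488) and *PMAIP1* (26.6 ± 6.8) came next, and the values of *PMAIP1* overlapped those of both effectors. *BID* (20.5 ± 0.0805), *BBC3* (5 ± 0.798), *BCL2L11* (2.47 ± 0.263), *BMF* (0.959 ± 0.0973) and *BCL2* (0.0319 ± 0.000231) followed without overlap between neighbours. In HSF1-pLVX cells *MCL1* came first with 111 ± 2.45 RPKM, and *BCL2L1*, with 27.4 ± 1.75, came after *BAX* (36.7 ± 0.946) and *PMAIP1* (35.2 ± 2.09), which overlapped each other. This place of *BCL2L1* holds only with the full exonic length: with the lengths that leave out bases shared with other genes, described with the ratio of *MCL1* to *BCL2L1*, it came right after *MCL1* and before *BAX* and *PMAIP1*. *BAK1* (22.3 ± 0.31) and *BID* (16.9 ± 0.503) followed. *BBC3* (6.78 ± 0.257), *BCL2L11* (3.63 ± 0.0408), *BMF* (1.51 ± 0.185) and *BCL2* (0.0604 ± 0.000737) were again the least abundant, in the same order as in WT.

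The survival side of the family was thus carried by 2 transcripts whose order differed between the variants. The ratio of *MCL1* to *BCL2L1* per length was 0.701 and 0.848 in WT replicates 1 and 2 and 3.83 and 4.32 in HSF1-pLVX replicates 1 and 2. When the exonic bases that other counted genes share were left out of the lengths, an alternative chosen after seeing the overlap with *ABALON*, the ratio was 0.4 and 0.484 in WT and 2.18 and 2.47 in HSF1-pLVX cells, so its size depended on the length used and the order of the variants did not. The survival genes together were at 184 and 191 RPKM in WT and at 138 and 139 RPKM in HSF1-pLVX libraries. The effectors *BAX* and *BAK1* were at 54.8 and 59.2 RPKM in WT and at 58.2 and 60 RPKM in HSF1-pLVX libraries, ranges that overlapped. *BOK*, another effector gene, was not part of this sum. It was at 28.6 and 23.8 RPKM in WT and at 18.8 and 20.7 RPKM in HSF1-pLVX libraries, without overlap. Its log2 fold change was -0.41 (edgeR adjusted p = 0.00227), so the overlap holds for the sum of *BAX* and *BAK1* alone. The BH3-only genes were at 49.8 and 61.2 RPKM in WT and at 62.8 and 65.2 RPKM in HSF1-pLVX libraries, with the lower WT value in replicate 1, where *PMAIP1* was low. The summed level of all 10 genes was 289 and 312 RPKM in WT and 259 and 264 RPKM in HSF1-pLVX libraries.

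As a share of that sum, the survival genes took 63.8 and 61.4% in WT and 53.3 and 52.6% in HSF1-pLVX libraries. *BCL2L1* alone took 37.5 and 33.2% in WT and 11 and 9.89% in HSF1-pLVX libraries, while *MCL1* took 26.3 and 28.2% in WT and 42.2 and 42.7% in HSF1-pLVX libraries. With the lengths without shared bases, *BCL2L1* took 51.1 and 46.4% in WT and 17.8 and 16.1% in HSF1-pLVX libraries, beside 12.8 and 13.1% for *BAX* and 12 and 12.9% for *PMAIP1* in the HSF1-pLVX libraries. With the full length, the effectors took 19% in each WT library and 22.5 and 22.7% in HSF1-pLVX libraries. The BH3-only genes took 17.3 and 19.6% in WT and 24.3 and 24.7% in HSF1-pLVX libraries. These shares describe transcripts and were not tested.

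**Figure D4:**
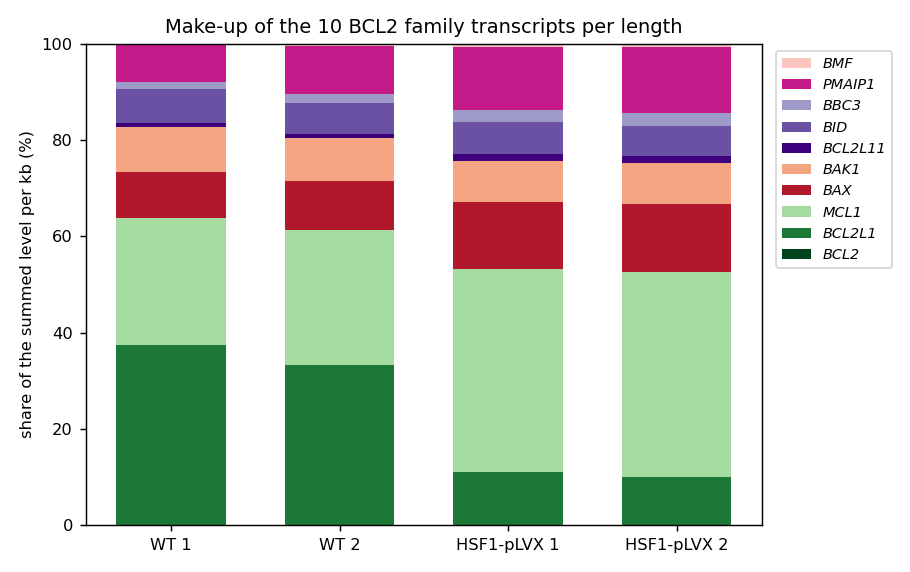
Share of each of the 10 genes in their summed level per kilobase, as a percentage of the sum in each library, with survival genes in green at the bottom, effectors in red and orange, and BH3-only genes in purple and pink. *BCL2L1* takes 37.5% and 33.2% in WT and 11% and 9.89% in HSF1-pLVX libraries, and *MCL1* takes more than 42% in both HSF1-pLVX libraries.

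The other genes of the pathway were taken from a list of 56 genes, of which 52 passed the filter on low counts. Of these 52 genes, 19 were called higher and 21 called lower, beside 32.7% and 33.2% of all tested genes. By 2-fold or more, 11 rose and 4 fell, beside 14.9% and 14.0% of all tested genes. The same shares of all tested genes stand beside the counts by role that follow. Their median log2 fold change was 0.00, beside 0.02 for all tested genes. Among the closest relatives of the 10 genes, *BIK*, a BH3-only gene, rose from 7.03 and 8.45 CPM in WT to 20.9 and 23.4 CPM in HSF1-pLVX libraries, a log2 fold change of 1.51 (SE 0.131, edgeR adjusted p = 1.5e-07). *BCL2A1*, a survival gene, had 2 and 4 counts in WT and 28 and 18 counts in HSF1-pLVX libraries, a log2 fold change of 2.62 that rests on few counts (SE 0.496, edgeR adjusted p = 0.000321). It passed the filter on low counts only through the HSF1-pLVX libraries. A gene this low in WT was thus tested only because it was higher in HSF1-pLVX cells. *BNIP3L*, whose protein marks mitochondria for removal, fell from 100.5 and 110 CPM in WT to 44.6 and 41.3 CPM in HSF1-pLVX libraries (log2 fold change -1.29, SE 0.0883, edgeR adjusted p = 1.28e-08). Of the 3 tested BH3-only genes outside the 10, *BIK* was higher, 1 was not called and *BAD* was lower. *BAD* fell from 47.7 and 46.8 CPM in WT to 32.4 and 35.8 CPM in HSF1-pLVX libraries (log2 fold change -0.47, SE 0.09, edgeR adjusted p = 0.000335). In all, 5 of the 10 tested relatives outside the 10 genes were higher (*BCL2A1* among them), 4 were lower and 1 was not called.

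Of 10 tested genes of the apoptosome, the released mitochondrial factors and the executioner caspases, 2 were higher and 3 lower, and the median log2 fold change was 0.00. *CYCS*, which encodes cytochrome c, had a log2 fold change of 0.01 (95% interval from -0.18 to 0.20, edgeR adjusted p = 0.916), and the 1 gene past 2-fold was *CASP6*, an executioner caspase, which fell from 27.2 and 30.4 CPM in WT to 13 and 13.6 CPM in HSF1-pLVX libraries (log2 fold change -1.12, SE 0.108, edgeR adjusted p = 4.72e-07). Of 5 inhibitor of apoptosis genes, 2 rose and 2 fell. *BIRC3*, which encodes cIAP2, rose from 258 and 282 to 656 and 620.2 CPM (log2 fold change 1.24, edgeR adjusted p = 5.32e-08). *BIRC5*, which encodes survivin, a protein of dividing cells, rose from 12.6 and 8.56 to 44.7 and 37.4 CPM (log2 fold change 1.96, edgeR adjusted p = 3.55e-08).

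Of 13 tested genes of the death receptor pathway, which reaches mitochondria through *BID*, 2 were higher and 8 lower, with a median log2 fold change of -0.39. *TNFSF10*, which encodes the ligand TRAIL, rose from 13.6 and 13.1 CPM in WT to 68.8 and 90.1 CPM in HSF1-pLVX libraries (log2 fold change 2.57, SE 0.127, edgeR adjusted p = 4.88e-10). *TNFRSF10C*, a decoy receptor of TRAIL, fell from 7.57 and 8.45 to 0.837 and 1.16 CPM (log2 fold change -3.02, SE 0.238, edgeR adjusted p = 5.7e-08). It belongs to a group of neighbouring, similar receptor genes between which reads could have been split, which leaves its value uncertain. *TRADD*, an adaptor of the TNF receptor, fell from 37.6 and 35.7 to 15.9 and 15.8 CPM (log2 fold change -1.21, SE 0.097, edgeR adjusted p = 6.99e-08).

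Of 9 transcription factors known to act on BCL2 family genes, 7 were higher and 0 were lower, beside 32.7% and 33.2% of all tested genes. The median log2 fold change of the 9 factors, which were listed with earlier results of these data known, was 1.16. Of these, 4 with the largest changes were *TP73*, *TP63*, *MYC* and *E2F1*. *TP73* and *TP63*, which encode factors that can act on *BBC3* and *PMAIP1*, rose from 1.23 and 1.4 to 22.5 and 25.2 CPM and from 10.4 and 8.99 to 106 and 110 CPM, log2 fold changes of 4.17 and 3.48 (edgeR adjusted p = 7.75e-11 and 5.08e-12). *MYC* rose from 80.5 and 89.9 to 536 and 524 CPM (log2 fold change 2.64, edgeR adjusted p = 4.26e-11), and *E2F1* from 6.55 and 3.93 to 19.2 and 17.3 CPM (log2 fold change 1.80, edgeR adjusted p = 6.63e-07). The log2 fold changes of *BBC3* and *PMAIP1* were 0.44 and 0.41, and whether these factors had a part in them was not tested. Of 5 genes whose proteins act on BCL2 family proteins, 4 fell, and 1 rose. Among those that fell were *HUWE1* and *USP9X*, which encode a ligase and a deubiquitinase of MCL1 (log2 fold changes -0.56 and -0.49, edgeR adjusted p = 0.000518 and 0.000727). The gene that rose was *FBXW7*, part of a ligase for MCL1, from 18.4 and 21.7 to 41 and 42.4 CPM (log2 fold change 1.06, SE 0.102, edgeR adjusted p = 5.01e-07). The level of the MCL1 protein was not measured in these data.

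**Figure D5:**
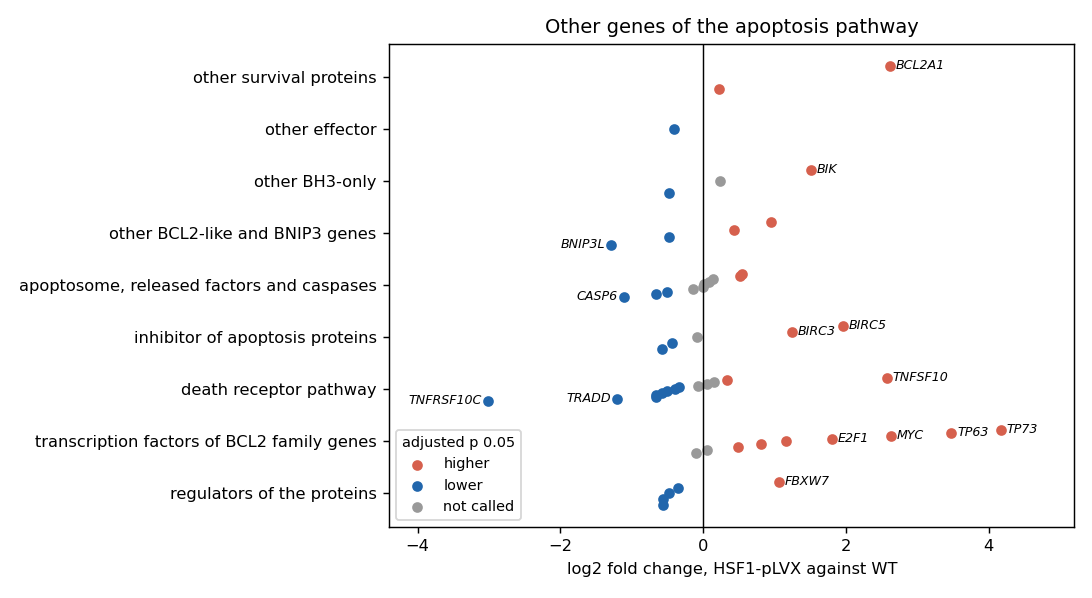
Log2 fold change in HSF1-pLVX against WT cells of the 52 tested pathway genes outside the 10 family members, grouped by role, with genes called higher in red, lower in blue and not called in grey. The named genes are those past 2-fold, at most 4 in a group. Of the transcription factors 7 are called higher and 0 lower, and of the death receptor genes 2 are called higher, *TNFSF10* far to the right, and 8 lower. The shares over all tested genes are 32.7% higher and 33.2% lower.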

How the data were processed

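RNA-seq libraries of MCF10A cells, 2 of WT and 2 of HSF1-pLVX cells, were grouped by the sample titles, which also give the replicate number. Neither titles nor methods tie equal numbers to a common culture, so p-values measure only the spread between these libraries. The authors deposited raw counts per gene: paired-end reads were aligned to hg38 with HISAT2 2.0.5, processed with SAMtools 1.13 and counted with featureCounts 1.6.5 on 63856 GENCODE genes. The strand and overlap settings are not given in the sources used here. The authors also deposited log2-like values normalized with DESeq2 1.32.0, used here only as an alternative. A table of gene names gave 41844 identifiers a symbol, with older names from RefSeq, and positions are those of the count table.

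The test was run in R 4.3.3 with edgeR 4.0.16 (TMM scaling, filterByExpr, quasi-likelihood test without a block, Benjamini-Hochberg adjustment over 15830 genes, threshold 0.05). The standard error is the log2 fold change divided by the root of the F statistic. CPM and RPKM use the same TMM factors. The replicate pairs differed by more than sampling noise (chi-square per degree of freedom 6.62 for WT and 8.04 for HSF1-pLVX). The edgeR test was checked on simulated data. Alternatives covered normalization, the filter, DESeq2 1.42.0, limma 3.58.1, the replicate block, each library left out and the study's ratio rule. Genes named beside the members were those called past 2-fold with at least 1 CPM in the higher group, at most 4 in a list. *BAD*, *BOK*, *CYCS*, *HUWE1*, *USP9X*, *FAS*, *KDR* and *PTPRC* were named after their values were seen. The members and lists were chosen with earlier results of these data known. No protein sequences were used here, and a planned motif search is not reported here.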

Additional observations from a re-analysis of the deposited data

How the results depend on the processing

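The direction of each of the 10 genes was the same under every alternative. With each library left out in turn, between 2 and 6 of the genes were called higher and between 1 and 3 lower. The log2 fold changes then lay between 0.36 and 0.54 for *MCL1*, 0.23 and 0.37 for *BAX*, -0.29 and -0.26 for *BAK1*, -0.30 and -0.24 for *BID*, 0.30 and 0.59 for *BBC3*, and 0.18 and 0.68 for *PMAIP1*. Fewer libraries leave fewer degrees of freedom. DESeq2's Wald test gave 0.41 for *BBC3* and 0.63 for *BMF*, neither called. The difference of the deposited normalized values was 0.43 for *BCL2*, -1.97 for *BCL2L1*, -0.31 for *BAK1* and -0.30 for *BID*, and the cause was not tested. The study's ratio rule on the deposited values asks for a 2-fold change within both replicate numbers. It was passed upwards by 0 and downwards by 1 of the 10 genes. The share of all genes that pass this rule was not computed here, so these counts stand without a background. By the edgeR test, a different rule, 14.9% of all tested genes were higher and 14.0% lower by 2-fold or more. With lengths that leave out bases shared with other genes, chosen after seeing the data, the mean ratio of *MCL1* to *BCL2L1* was 0.442 in WT and 2.32 in HSF1-pLVX cells, and the survival share was 70.1% and 56.1%.

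With the replicate number as a block, 6 of the genes were called higher and 3 lower, as without it, and 5138 and 5171 of all genes. Deviations from the mean of a variant had a correlation of 0.000143 between libraries with the same number, so the numbers gave no sign of pairing. Depth limits *BCL2* most, with at most 18 counts in a library.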

Other observations

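Of the 56 pathway genes, 4 were at or near 0 counts and were not tested. *BCL2L14* had 0 counts in all 4 libraries. *FASLG*, the ligand of FAS, had 1 count in HSF1-pLVX replicate 1 and 0 in the other libraries. In replicates 1 and 2, *BCL2L10* had 0 and 4 counts for WT and 2 and 0 for HSF1-pLVX cells, and *BCL2L15* had 0 and 3 counts for WT and 13 and 1 for HSF1-pLVX cells. The receptor *FAS* was expressed, at 49.8 and 58.9 CPM in WT and 55.6 and 57 CPM in HSF1-pLVX libraries, with a log2 fold change of 0.05 that did not pass the threshold (edgeR adjusted p = 0.644).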
